A study of Saccharomyces cerevisiae with 2 samples.

Results

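Yeast genes whose systematic name ends in a hyphen and a letter, such as YDL159W-A, are mostly short reading frames placed between genes that already had numbers. The genes described here carried such a name on the array itself and had at least 1 probe inside the gene on a nuclear chromosome. The rule found 112 genes with 129 probes, out of 5474 nuclear genes (2.05%) with 30194 probes inside genes, and all 129 probes were kept. Of the 112 genes, 96 had 1 probe, 15 had 2 and 1 had 3. They were compared with the probes beside them and with 1028 other nuclear genes that had 1 or 2 inside probes, called other small genes below. Some of the other small genes also have a hyphen-letter systematic name but were carried under a symbol on the array.

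The arrays, replicates 1 and 2 of 1 group, each compared nucleosomal with genomic DNA of the budding yeast Saccharomyces cerevisiae. The cells had been arrested with alpha factor, the mating pheromone that holds cells in G1, and no untreated cells are analysed here. Nucleosomal DNA, left after micrococcal nuclease had cut the chromatin, carried Cy5, and genomic DNA from sonicated chromatin carried Cy3 on both arrays. The sources used here give no strain, and nothing says whether the replicates came from separate cultures. The p-values therefore measure only how far these 2 arrays differ, and that may be technical.

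Nucleosomes are the units of histones and wrapped DNA that package the genome. Micrococcal nuclease cuts preferentially in the linkers between them, so wrapped DNA is recovered. In yeast, promoters just upstream of active genes are known for stretches depleted of nucleosomes, while coding regions carry regular arrays of them. A very short reading frame spans only 1 or a few nucleosomes.

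Ratios are given as log2 of nucleosomal over genomic signal, relative to the median ratio of the array, which is 0. Dyes were not swapped between the arrays, so their mean keeps any difference between the dyes, and values are given in the channels as labelled. Of 41775 probes, 41454 were kept. On replicate 1 the median raw brightness was 32997 in Cy5 and 17885 in Cy3, and on replicate 2 it was 33242 and 16928. Over all kept probes, the median ratio was 0.56 upstream of genes or between divergent genes (9173 probes), 0.20 downstream (1878 probes), -0.11 inside other genes (29927 probes) and 0.12 for the 129 probes inside the hyphen-letter genes. The ratio was thus higher upstream than inside genes, the opposite order to that known for nucleosomes, and a high ratio is not read below as more nucleosomes.

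The hyphen-letter genes were spread more widely than other genes and held many of the highest ratios in the genome. Their median was 0.14 ± 0.0031 (SD of the median over 2 arrays), against -0.07 ± 0.0031 for other small genes and -0.08 ± 0.0018 for all nuclear genes. The SD over genes was 1.30 in the hyphen-letter genes, 0.66 in other small genes and 0.48 in all nuclear genes. Means over several probes vary less than single probes, and among genes with 1 probe the SD was 1.39 in the 96 hyphen-letter genes and 0.78 in the 356 others. The lower and upper quartiles of the mean ratio of both arrays were -0.44 and 1.13, and the whole list ran from -1.65 to 4.87. All 112 genes had the same sign on both arrays.

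In limma with Benjamini-Hochberg adjustment over the 5469 nuclear genes tested, 66 hyphen-letter genes (58.9%) were above 0, 44 (39.3%) below and 2 not called. The background was 38.3% above and 55.6% below. Other small genes had 43.2% above and 52.4% below. A mean ratio over 1 was found in 30 hyphen-letter genes (26.8%), in 6.42% of other small genes and in 2.16% of all nuclear genes. Among genes with 1 probe these shares were 31.2% and 10.1%, and per probe they were 27.1% inside hyphen-letter genes and 7% inside other genes. A mean ratio under -1 was found in 10 hyphen-letter genes (8.93%), in 3.89% of other small genes and in 1.23% of all nuclear genes. Among genes with 1 probe these shares were 10.4% and 6.18%, and per probe they were 9.3% and 7.97%. At the low end the classes were thus close per probe. Among genes with 1 probe the share of the hyphen-letter genes remained higher. Cy5 was saturated on both arrays in 4 of the 44 genes below 0 (COI1, TMA7, YCR087C-A and YOL164W-A). Their ratios are lower bounds, which do not place them below 0.

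Of the 10 highest nuclear genes, 7 were hyphen-letter genes, as were 13 of the 20 highest, 2 of the 10 lowest and 4 of the 20 lowest. Hyphen-letter genes were 2.05% of nuclear genes. Most of them, 96, had 1 probe, and this ranking was not matched for the number of probes.

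The median of the hyphen-letter genes exceeded that of other small genes by 0.20 on replicate 1 and 0.21 on replicate 2, a mean of 0.21 ± 0.0062 (SD, n = 2). With 2 arrays an exact sign-flip test cannot go below p = 0.5, so the difference between the classes was described and not tested. Among genes with 1 probe the difference was 0.26 ± 0.0047 (SD, n = 2). The array median sets the zero: in the deposited values, which are not centred, the median of the hyphen-letter genes was 0.0095 in place of 0.14.

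**Figure D1:**
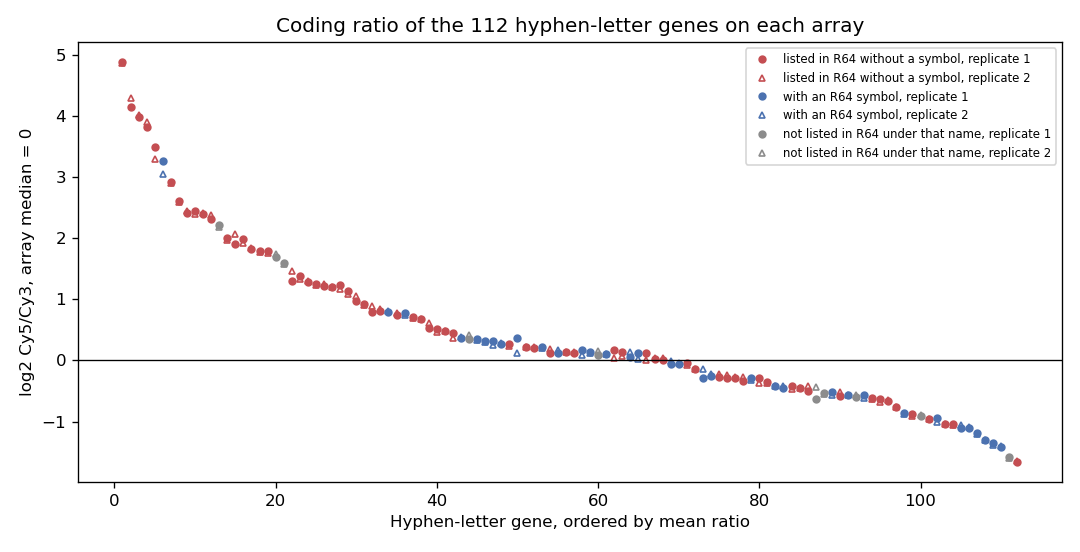
The log2 ratio of nucleosomal (Cy5) over genomic (Cy3) DNA, with the array median at 0, is plotted for each of the 112 hyphen-letter genes on each array, ordered by mean ratio. Filled circles are replicate 1 and open triangles replicate 2; the genes without a gene symbol (red) fill most of the upper end, 7 of the 8 highest, and genes with a symbol (blue) are 6 of the 8 lowest.

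Of the 8 highest genes, 7 have no gene symbol in the table of yeast genes used for names (assembly R64), and no role is stated for them. YDL159W-A, a gene of 132 bp whose probe lay at 172247 to 172306 on chromosome 4, had ratios of 4.87 and 4.86 on replicates 1 and 2, above every other nuclear gene (limma, adjusted p = 1.67e-11). It lies between the start of DHH1, which encodes an RNA helicase of messenger RNA decay, and the start of STE7, which encodes a kinase of the mating pheromone cascade. Its raw Cy3 brightness was 1268 and 1213 and its raw Cy5 brightness 58411 and 60816, so the genomic channel was dim and the nucleosomal channel bright.

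YLR406C-A (probe at 932209 to 932268 on chromosome 12), between the starts of the ribosomal protein gene RPL31B and of GAG1, had ratios of 4.15 and 4.29. YMR230W-A (733329 to 733388 on chromosome 13), beside the ribosomal protein gene RPS10B, had ratios of 3.98 and 4.01. YGR240C-A (974603 to 974662 on chromosome 7), beside PFK1, which encodes a subunit of phosphofructokinase, had ratios of 3.81 and 3.90. These 3 had raw Cy3 brightness between 1149 and 2896 on the 2 arrays, far below the array medians.

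YLR412C-A followed with 3.48 and 3.30, YHR086W-A with 2.91 and 2.90, and YOR034C-A with 2.61 and 2.59. MIN10 (YFR032C-B), a small mitochondrial protein and the 1 gene with a symbol among the 8 highest, had ratios of 3.27 and 3.06 (limma, adjusted p = 4.14e-09). It lies between the ribosomal protein gene RPL29 and QCR6, which encodes a subunit of the cytochrome bc1 complex. The 8 genes kept their sign under every alternative processing tried, and the lowest value of YDL159W-A among them was 3.70, with normexp background correction.

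At the other end, 6 of the 8 lowest genes have a symbol. YKL183C-A (98556 to 98615 on chromosome 11), between the polyamine synthesis gene SPE1 and LOT5, had the lowest ratios of the list, -1.66 and -1.64 (limma, adjusted p = 5.04e-10). Its raw Cy3 brightness was 39125 and 38536 and its raw Cy5 brightness 20989 and 21962, the reverse of the pattern at the highest genes. MHF1, a histone-fold protein of DNA repair, had -1.41 and -1.41, and TDA8 had -1.35 and -1.38. CMI7 had -1.31 and -1.29, and SUS1, a subunit of the SAGA and TREX-2 complexes that act in transcription and export of messenger RNA, had -1.20 and -1.20.

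MNC1 had -1.11 and -1.09, and DPA10 had -1.10 and -1.06. YOL013W-B, which the R64 table does not list, had -1.58 and -1.60, but 0.69 with normexp background correction; its raw Cy3 brightness was 6362 and 6289. The other 7 of the 8 lowest genes stayed below 0 under every alternative processing tried.

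The R64 table lists 102 of the 112 genes under the same name, 34 of them with a symbol and 68 without. Of the other 10, 6 are listed there only as another name of a gene and 4 have no entry. Genes with a symbol had a median of -0.04 ± 0.024 (SD over 2 arrays), with 16 above 0 (47.1%) and 18 below (52.9%). These shares were near the 43.2% and 52.4% of other small genes. Genes without a symbol had a median of 0.49 ± 0.016, with 45 above (66.2%), 21 below (30.9%) and 2 not called. The background over all nuclear genes was 38.3% above and 55.6% below. A ratio over 1 was found in 26 of the 68 genes without a symbol (38.2%) and in 1 of the 34 with one (2.94%), while a ratio under -1 was found in 3 and 6 of them.

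The median of genes with a symbol minus that of genes without was -0.56 on replicate 1 and -0.51 on replicate 2, a mean of -0.53 ± 0.040 (SD, n = 2). Relative to other small genes, the genes with a symbol differed by 0.025 ± 0.027 (SD, n = 2), within the spread between the arrays, and the genes without a symbol by 0.56 ± 0.013. A further 62 genes with hyphen-letter names in R64 were carried under a symbol on the array and so were not in the list. Those of the 62 with 1 or 2 inside probes are among the other small genes. The median of all 62 was -0.0078 ± 0.00058, with 30 above 0 and 31 below. The split by symbol was made with results known and was not tested.

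Gene length moved with the symbol. The 102 listed genes had a median length of 214.5 bp in R64, introns included, and ranged from 84 to 1392 bp. The median ratio was 0.96 in the 22 genes of up to 150 bp, 0.21 in the 59 genes over 150 and up to 300 bp, and -0.036 in the 21 longer genes. Across the 102 genes, length and ratio had a Spearman rho of -0.357 and a Pearson r of -0.233. Across the 1023 other small genes with a length, rho was -0.001. Only 68 of these were 300 bp or less, against 81 of the 102 hyphen-letter genes. The 2 rhos therefore cover different lengths and are not directly comparable. These are descriptions across genes that share both arrays.

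The split by symbol was not shown at all lengths. All 22 genes of up to 150 bp had no symbol. Among genes over 150 and up to 300 bp, the 19 with a symbol had a median of -0.20 ± 0.075 and the 40 without one 0.45 ± 0.046, a difference of -0.65 ± 0.12 (SD, n = 2). Of these 40 genes, 27 were above 0 (67.5%) and 13 below (32.5%). Of the 19 genes, 9 were above (47.4%) and 10 below (52.6%), against a background of 38.3% and 55.6%. The 68 other small genes of at most 300 bp, all of them over 150 bp, had a median of -0.09 ± 0.034, and the 59 hyphen-letter genes of that range exceeded it by 0.30 ± 0.031 (SD, n = 2). Above 300 bp the medians had the opposite order: the 15 genes with a symbol had a median of -0.036 and the 6 without one -0.22, a difference of 0.18 ± 0.035 (SD, n = 2). Genes of both classes had a probe with Cy5 saturated on both arrays, among them YCR087C-A (-0.55) without a symbol. Their ratios are lower bounds, so the order above 300 bp is not settled.

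**Figure D2:**
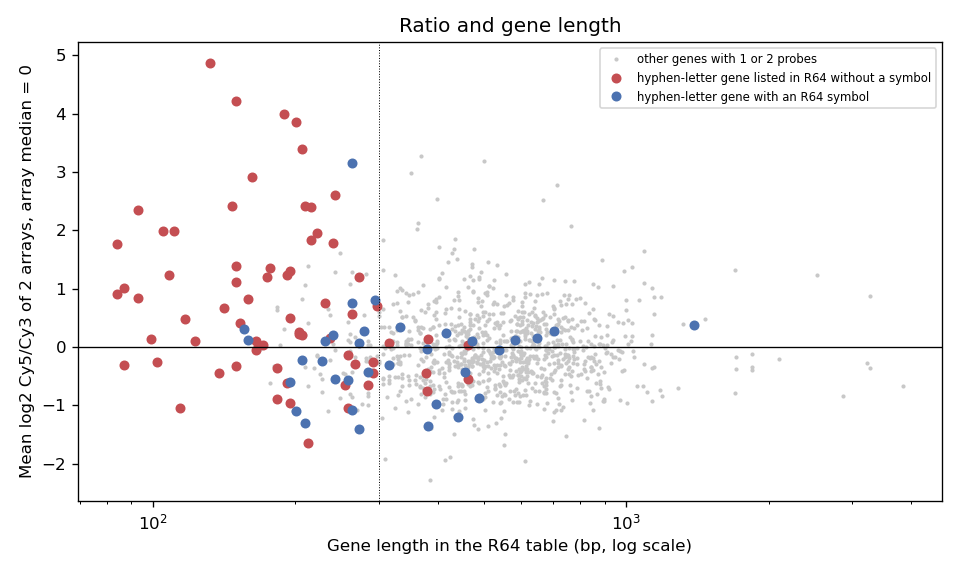
The mean log2 ratio of 2 arrays is plotted against gene length in the R64 table (bp, log scale) for the 102 listed hyphen-letter genes, in red without and in blue with a symbol, and for other small genes in grey; the dotted vertical line is at 300 bp. The red points reach from -1.65 to 4.87 and lie mostly left of 300 bp; over 150 and up to 300 bp the 40 of them have a median of 0.45 and the 19 blue points a median of -0.20.

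Of the 34 genes with a symbol, 15 encode mitochondrial proteins. Of these 15, 8 were above 0 and 7 below, COI1 among them with only a bound (background 38.3% and 55.6%), with a median of 0.065. CMC4, a protein of the intermembrane space with twin CX9C motifs, had ratios of 0.79 and 0.80, and MIM2, which acts in import into the outer membrane, had 0.77 and 0.75. BOL1, an iron-sulfur cluster factor, had 0.35 and 0.33. SDH6, an assembly factor of succinate dehydrogenase, had 0.21 and 0.20. CMC2, another twin CX9C protein, had 0.37 and 0.12, the widest gap between the arrays among the 57 genes named by rule, with Cy5 saturated on both (limma, adjusted p = 0.0027).

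COA2, COA3 and COA6 are assembly factors of cytochrome c oxidase. COA2 had -0.29 and -0.14, COA3 had -0.56 and -0.56, and COA6 had -0.29 and -0.32. AIM11 was lowest of the mitochondrial group at -0.86 and -0.88. RCF3, which binds respiratory chain complexes, had -0.42 and -0.42, and ISD11, which acts with the cysteine desulfurase in making iron-sulfur clusters, had -0.45 and -0.41. With normexp background correction RCF3 came to 0.042 and ISD11 to 0.25.

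MCO6, MCO10 and COI1 lay near 0, and their sign depended on the processing. MCO6 had 0.13 and 0.12, MCO10 had 0.12 and 0.015, and COI1, which interacts with the respiratory chain, had -0.062 and -0.039. MCO6 and MCO10 fell below 0 with normexp and in the uncentred values, and COI1 rose above 0 with loess and when saturated probes were left out.

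All 4 genes of chromatin or RNA processing were below 0 (background 55.6%), with a median of -0.87, though YSF3 rose to 0.11 with loess. Besides MHF1 and SUS1, these were MHF2, the partner of MHF1, with -0.52 and -0.56, and YSF3, a subunit of the SF3b complex of the spliceosome, with -0.059 and -0.013. Of the 4 ribosome-related genes, 3 were above 0 (background 38.3%), and the other, TMA7, has only a bound. EFG1, which acts in maturation of 18S ribosomal RNA, had 0.31 and 0.25, LSO2, a ribosome-associated protein, had 0.26 and 0.28, and TMA20 had 0.13 and 0.18, which turned to -0.21 with loess. TMA7, another ribosome-associated protein, had -0.56 and -0.62 with Cy5 saturated on both arrays, so these are lower bounds, and it came to 0.0011 with loess.

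Of the remaining 11 genes with a symbol, 5 were above 0 and 6 below (background 38.3% and 55.6%). NVJ3, a protein of the junction between nucleus and vacuole, had 0.37 and 0.39, and CPP3 had 0.31 and 0.30. HBN1, of a nitroreductase family, had 0.16 and 0.09, BIL1 had 0.11 and 0.11, and YOS1, which acts in transport from the endoplasmic reticulum to the Golgi, had 0.054 and 0.14. Each of these last 3 fell below 0 under at least 1 alternative. EGO2, a subunit of the EGO complex on the vacuole, had -0.25 and -0.21, and IGO2, an endosulfine that protects messenger RNA on entry into quiescence, had -0.94 and -1.01.

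Brightness in the 2 dyes differed between the ends of the list. Of the 30 genes with a ratio over 1, 29 had Cy3 below the array median, with a median Cy3 level of -1.97 (log2, array median at 0), while their median Cy5 level was 0.13. Of the 10 genes under -1, 7 had Cy3 above the median, with a median Cy3 level of 1.16, and 8 had Cy5 below it. Across the 112 genes the ratio had a Spearman rho of -0.712 with the Cy3 level and of 0.213 with the Cy5 level. In the 1028 other small genes these were -0.592 and 0.216. The ratio contains both levels, so these values describe which channel varied and are no independent measure.

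The median Cy3 level was -0.49 in genes without a symbol, 0.38 in genes with one and 0.07 in other small genes. It was -1.36 in the genes of up to 150 bp. The median Cy5 levels were 0.13, -0.0019 and -0.027 in genes without a symbol, with one and in other small genes. The part of the Cy3 levels in the ratios of these genes was not tested. Cy5 was saturated at a probe of 15 genes, on both arrays in 11, and Cy3 at none, so those ratios are lower bounds.

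**Figure D3:**
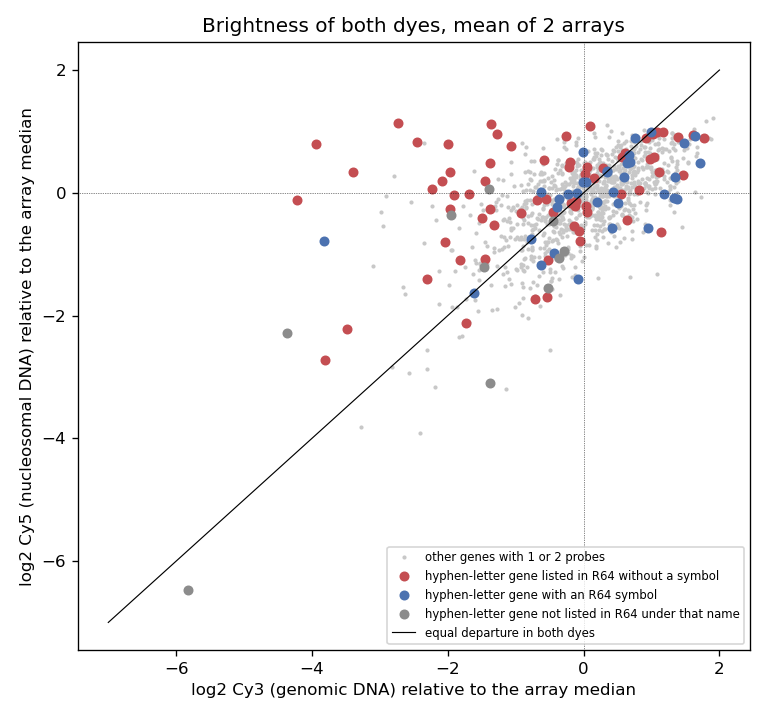
The brightness of each gene in Cy5 (nucleosomal DNA, vertical axis) is plotted against Cy3 (genomic DNA, horizontal axis), both as log2 relative to the array median (dotted lines) and averaged over 2 arrays, with equal departure in both dyes on the black line. Many red points, genes without a symbol, lie far to the left at a Cy5 level near 0: the 30 genes with a ratio over 1 have a median Cy3 level of -1.97 and a median Cy5 level of 0.13.

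The next comparison set each gene against the nearest kept probe on each side that was not inside it, with probe centres within 1000 bp. Of 110 genes with such a neighbour, limma placed 44 (40.0%) above their neighbours, 62 (56.4%) below and 4 in neither class. Among the 62, Cy5 was saturated on both arrays at a probe of YKL096C-B, LSO2, COI1, TMA7, YDR003W-A, YIL014C-A, YOL164W-A and YCR087C-A. Their ratios are lower bounds, which do not place them below their neighbours. The background over 5460 nuclear genes was 22.5% above and 73.1% below, and other small genes had 25.9% above and 70.4% below. The median difference was -0.25 ± 0.0027 (SD over 2 arrays) in hyphen-letter genes, -0.62 ± 0.0026 in other small genes and -0.65 ± 0.0029 in all nuclear genes. With 2 probes on each side in place of 1, the median difference of the hyphen-letter genes was -0.037, and with loess it was -0.068. The values above for other small genes and all nuclear genes are from neither setting, so they are not comparable with these 2.

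The split by symbol also appeared here. Of the 34 genes with a symbol, 6 were above their neighbours (17.6%) and 27 below (79.4%), with a median difference of -0.62 ± 0.0022. Of the 68 without a symbol, 36 were above (52.9%) and 29 below (42.6%), with a median of 0.13 ± 0.0046. The background was 22.5% above and 73.1% below. The difference from other small genes was -0.0003 ± 0.0047 (SD, n = 2) for the genes with a symbol and 0.75 ± 0.0072 for those without. Across the 110 genes, the ratio of the gene and that of its neighbours had a Spearman rho of 0.192, as a description over genes that share both arrays.

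The genes farthest above their neighbours were YDL159W-A, by 5.45 ± 0.032 (SD, n = 2), YGR240C-A, by 3.53 ± 0.12, and YMR230W-A, by 3.34 ± 0.038. YHR086W-A exceeded its neighbours by 3.18 ± 0.012 and YOR034C-A by 2.60 ± 0.0019. The neighbours of YDL159W-A are coding probes with mean ratios of -0.55 and -0.61 on replicates 1 and 2. Those of YHR086W-A are intergenic, with -0.28 and -0.27. High ratios therefore stood beside neighbours near or below the array median at these 2 genes.

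The genes farthest below their neighbours lay beside probes with high ratios, which were intergenic on both sides except at COI1. MNC1 was lower by 3.19 ± 0.045 (SD, n = 2), with neighbours at 2.11 and 2.08. YPL152W-A, a gene of 99 bp between the starts of RAD53, which encodes a checkpoint kinase, and RRD2, was itself near 0 at 0.12 and 0.14, while its neighbours had 3.26 and 3.27. COI1 differed by -2.72 ± 0.067, which rests on a probe with saturated Cy5, IGO2 by -2.69 ± 0.037 and MCO6 by -2.61 ± 0.00083. In COI1 and MCO6 the ratio of the gene was close to 0, and the neighbours lay at 2.62 and 2.73 and at 2.74 and 2.72.

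The kind of neighbour differed among the genes. Where both neighbours were intergenic, 15 of 53 genes (28.3%) were above them and 37 (69.8%) below, against 22.5% and 73.7% of 730 other small genes. With neighbours of mixed kind, 17 of 45 genes (37.8%) were above and 25 (55.6%) below, against 31.7% and 64.7% of 249 other small genes. The 4 genes with a neighbour on a single side were all above it, against 47.4% of 19 other small genes. The shares over all genes given earlier were not matched for the kind of neighbour, and its part in them was not tested. Both neighbours were inside other genes in 8 cases, and all 8 were above their neighbours. Of 23 other small genes with such neighbours, 12 (52.2%) were above and 10 below, with a median difference of 0.12. The 8 were YDL159W-A, YBL008W-A, YLL006W-A, YNL146C-A, YLR361C-A, EFG1, YHR050W-A and EGO2, with differences from 0.14 to 5.45. The median ratio of these 8 genes was 1.0, against 0.12 where both neighbours were intergenic.

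**Figure D4:**
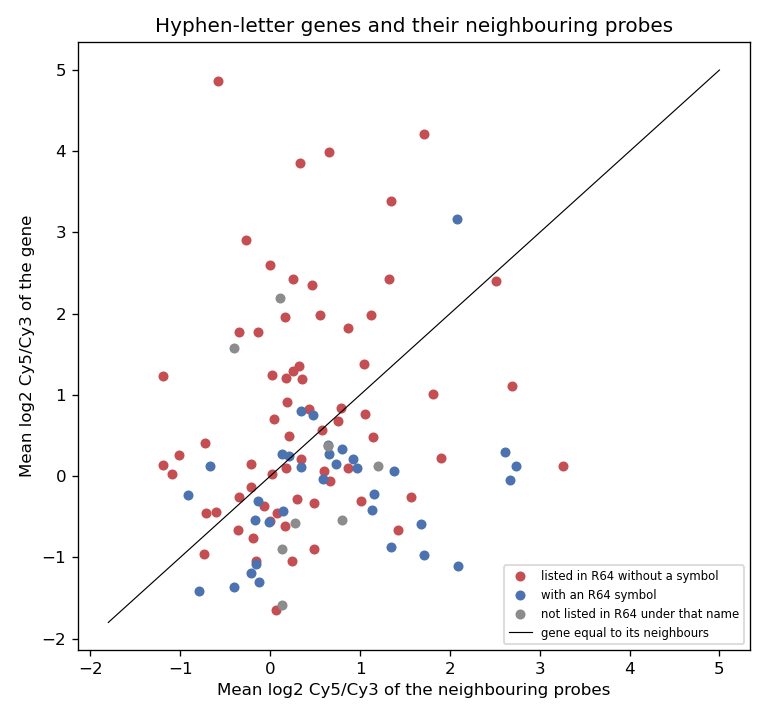
The mean log2 ratio of each hyphen-letter gene (vertical axis) is plotted against that of its neighbouring probes (horizontal axis), both with the array median at 0, and equal values lie on the black line. Of the 110 genes, 44 were called above their neighbours and 62 below; the red points without a symbol make up most of the high points above the line, and MNC1, COI1, MCO6 and YPL152W-A lie far to the lower right.

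Probes upstream of the same gene, within 1000 bp and named for it on the array, were measured for 80 of the 112 genes. The upstream mean was above the coding mean in 48 genes (60%), below it in 30 (37.5%) and not called in 2, against a background of 77.3% above and 19.4% below over 4978 nuclear genes. Among the 48, Cy5 was saturated on both arrays at a probe of TMA7, COI1, LSO2, CMC2, YIL014C-A and YOL164W-A. Their coding means are lower bounds, which do not place them below the upstream side. In YOL164W-A the difference was only 0.079. The median of upstream minus coding was 0.39 ± 0.016 (SD over 2 arrays), against 0.92 ± 0.0034 in other small genes and 0.94 ± 0.0062 in all nuclear genes. Of the 32 genes with a symbol, 25 had the upstream side higher and 6 lower, with a median of 1.10 ± 0.045. Of the 42 without a symbol, 19 had it higher and 22 lower, with a median of -0.11 ± 0.028. With normexp background correction the upstream side was lower in 19 of the genes in place of 30.

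IGO2 had the upstream mean at 2.15 and the coding mean at -0.97, a difference of 3.12 (limma, adjusted p = 2.14e-08). In YGR240C-A the order was the opposite, with the upstream mean at 0.045 and the coding mean at 3.86, a difference of -3.81 (limma, adjusted p = 3.05e-08). In MIN10 both sides were high, 2.92 upstream and 3.16 coding.

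Gene order in R64 placed 28 of the genes between the starts of both flanking genes, 59 between the end of one and the start of the other, and 14 between 2 ends. The remaining listed gene, YGL041C-B, overlaps another gene on the opposite strand, and it had -0.87 and -0.91 but 0.19 with normexp. The median ratio was 0.34 ± 0.0084 between starts, 0.13 ± 0.0086 from end to start and -0.09 ± 0.031 between ends. In other small genes the order was the opposite, with medians of -0.13 ± 0.014, -0.08 ± 0.0035 and 0.019 ± 0.0017. Between starts, the 19 hyphen-letter genes without a symbol had a median of 0.76 and the 9 with one -0.036. By suffix letter, the median was 0.14 for the 93 genes ending in A and 0.14 for the 16 ending in B. By strand, it was 0.08 for the 55 W genes and 0.21 for the 57 C genes, a difference of -0.13 ± 0.046 (SD, n = 2).

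Within the 16 genes that had more than 1 probe, the ratio often differed between probes. The probes are those the array places inside the gene, and in 3 genes, MIM2, LSO2 and COA6, they span more than the gene's length in R64, so at least 1 of their probes reaches outside the R64 gene. In 12 of the 16 the probes lay on both sides of 0. In LSO2 and COI1, among these 12, the probe below 0 had Cy5 saturated on both arrays. Its ratio is a lower bound, which does not place it below 0. EGO2 had 1 probe at 248984 to 249043 on chromosome 3 with -1.48 and -1.50 on replicates 1 and 2, and another at 249151 to 249210 with 0.99 and 1.07, a range of 2.52 inside a gene of 228 bp. Its mean of -0.23 therefore stands for neither probe. Its first probe had raw Cy3 brightness of 45358 and 46272 and the second 8630 and 9086, while Cy5 was between 26574 and 31582 at both.

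TMA20 had -0.84 and -0.77 at one probe and 1.09 and 1.12 at the other. MIM2 had -0.17 and -0.16 at one and 1.70 and 1.65 at the other. NVJ3, the only gene with 3 probes, had 0.74 and 0.78 at its first probe by coordinate, -0.70 and -0.69 at the middle one and 1.08 and 1.08 at the last. COA6 was the most even, with a range of 0.031 between its probes. The median range was 0.73 in the 15 genes with 2 probes and 0.64 in 667 other genes with 2 probes. The 0.73 is the range of YAL063C-A, whose probes overlap, at 22502 to 22561 and 22516 to 22575 on chromosome 1. They had means of 0.11 and -0.62, so a range need not be a difference between separate stretches. Most hyphen-letter genes had 1 probe, so their ratio is that of a single stretch of at most 60 bases.

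**Figure D5:**
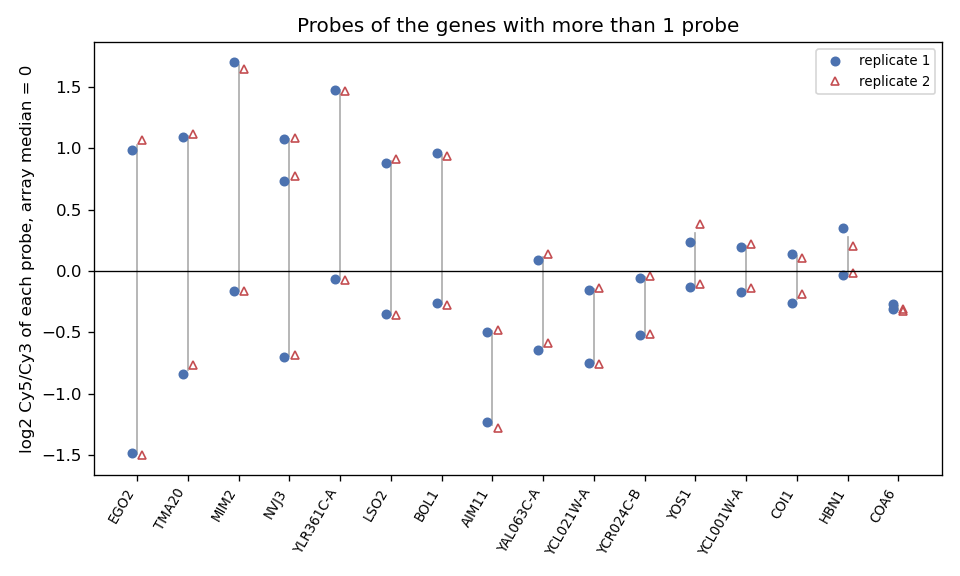
The log2 ratio of each probe, with the array median at 0, is plotted for the 16 hyphen-letter genes with more than 1 probe, ordered by the range between their probes. Circles are replicate 1, triangles replicate 2, and the grey line joins the lowest and highest probe means; EGO2 spans 2.52 and COA6 0.031, while the 2 arrays lie close together at each probe.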

How the data were processed

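Per the file headers, the deposited scanner files hold each spot's intensity (linear) and a processed intensity, which is background-subtracted and dye-scaled by Agilent Feature Extraction 9.1.3.1. Per the labels' protocols, DNA was linearly amplified before labelling. The deposited value table is in log2, and it matched the log2 ratio of processed Cy5 to processed Cy3 to within 5.00e-06 without centring (medians -0.13 and -0.13). All files therefore have the same direction.

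From the processed intensities, log2 ratios were computed for 41775 probes and centred on each array's median. Probes flagged as non-uniform (174) or not well above background in Cy3 (147) were left out. Saturated probes stayed. Values were averaged per gene. Gene means, gene minus neighbouring probes, and upstream minus coding means (each against 0) were fitted over all nuclear genes with limma 3.58.1 (R 4.3.3, intercept and eBayes), and calls were made at a Benjamini-Hochberg adjusted p under 0.05. The 2 arrays leave 1 residual degree of freedom per gene. The fit was tested on simulated data. Coordinates are those of the array, whose genome build the sources used here do not give. R64, used for names, gene order and length, matched 5446 of 5469 genes. Python 3.11.15, numpy 2.4.6, pandas 2.3.3 and matplotlib 3.10.9 were used otherwise.

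Members and lists were chosen with earlier results of these data known. Named genes were the 8 highest and 8 lowest called, the 5 farthest above and below their neighbours, those with 2 or more probes, the median gene, extremes by place and neighbour, and those with an R64 symbol. This gave 57 genes. YBL008W-A, YLL006W-A, YNL146C-A, YHR050W-A, YCR087C-A, YOL164W-A, YKL096C-B, YDR003W-A and YIL014C-A were named after their values were seen. Alternatives were normexp (offset 50), loess, the uncentred values, other filters, other neighbours and subsets of genes.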

Additional observations from a re-analysis of the deposited data

How the results depend on the processing

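The counts of hyphen-letter genes above and below 0, and above and below their neighbours, stayed within 1.5 times under every alternative run (50 to 66, 36 to 46, 36 to 51 and 46 to 62). The count with the upstream side below the coding side was 19 with normexp, against 30. The median of the hyphen-letter genes was 0.11 with normexp, 0.20 with loess, 0.0095 uncentred, 0.14 without dim and saturated probes (101 genes left), 0.14 without genes over 600 bp and 0.14 without the 10 genes R64 does not list; leaving out each array gave 0.13 to 0.14. The median minus neighbours was -0.17 with normexp, -0.068 with loess, -0.22 without dim and saturated probes, -0.037 with 2 probes on each side and -0.27 within 500 bp; leaving out each array gave -0.25 to -0.25. The difference from other small genes was 0.20 with normexp, 0.29 with loess, 0.22 without dim and saturated probes, 0.26 for genes with 1 probe and 0.37 for genes of at most 300 bp; leaving out each array gave 0.20 to 0.21. The difference of genes with and without a symbol was -0.78 with normexp, -0.43 with loess, -0.89 at 300 bp or less, -0.65 over 150 and up to 300 bp and 0.18 over 300 bp; leaving out each array gave -0.56 to -0.51. Of the 57 named genes, the sign turned in 11 with normexp: YAL064W-B -0.35, RCF3 0.042, YCL001W-A -0.0085, HBN1 -0.023, ISD11 0.25, YGL041C-B 0.19, MCO6 -0.37, YLR312C-B 0.049, YOL013W-B 0.69, MCO10 -0.31 and BIL1 -0.27. It turned in 8 with loess: YCL001W-A -0.12, COI1 0.17, YDR524W-A -0.12, TMA20 -0.21, YOS1 -0.27, TMA7 0.0011, YSF3 0.11 and YPL152W-A -0.022. It turned in 5 in the uncentred values: YCL001W-A -0.0996, YOS1 -0.031, MCO6 -0.0011, MCO10 -0.062 and BIL1 -0.017. It turned in 3 without dim and saturated probes: HBN1 -0.022, COI1 0.12 and YLR361C-A -0.067. The cause was not tested. The upstream comparison, the split by symbol and the subsets by length (other than 600 bp) and without unlisted genes were added after seeing the data. Leaving out 1 array leaves no residual degrees of freedom, so counts of calls have no such value. The alternative by probe composition was not run, as no probe sequences were used here. No paired analysis was possible because the 2 arrays form 1 group, with no second group to pair. With normexp, which corrects the background differently, YOL013W-B moved from -1.59 to 0.69 and YDL159W-A from 4.87 to 3.70.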

Other observations

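YLR157W-C, which R64 lists only as another name of a gene, was dim in both dyes, with raw Cy3 brightness of 692.9 and 429.9 and raw Cy5 brightness of 835.3 and 570.3 on replicates 1 and 2, and it had no neighbouring probe within 1000 bp. It was named after its values were seen.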
